A study of Mus musculus with 31 samples.

Results

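The expression of 10 genes of the cardiac sarcomere was followed through the spontaneous differentiation of mouse embryonic stem (ES) cells, and 9 of the 10 were higher in embryoid bodies (EBs) at day 8 than at day 4. The genes are Tnnt2, Tnnc1, Tnni1, Myl3, Myl4, Myl7, Actc1, Actn2, Myh6 and Myh7. They were taken by name, and a probe set was used where the array annotation gives it exactly 1 of these gene symbols. All 10 were measured, with 13 probe sets of the 12422 tested on the MgU74Av2 array, among 8251 genes in all. Myl4, Actc1 and Myh7 have a pair of probe sets each. For these the brighter probe set stands for the gene in the counts, and the other is given beside it.

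The series holds 31 arrays of ES cells of the B6 mouse strain, which were grown on mouse embryonic feeder cells with serum and LIF and then depleted of the feeders. ES on gelatin (6 arrays) are feeder-depleted cells taken to another passage on gelatin. ES Oct4-GFP sorted (6 arrays) are undifferentiated cells sorted for an Oct4-GFP reporter, a fluorescent marker of pluripotent cells. The EBs were made from ES cells on gelatin, which were put into nonadherent dishes without LIF, and were sampled at day 4 (7 arrays), day 8 (6 arrays) and day 14 (6 arrays). No inducer of heart muscle is named, so an EB sample is RNA of a mixture of cell types. In such a mixture, fewer cells of a type and less RNA per cell cannot be told apart. Methods name 6 biological samples at a time point, where the labels give 7 arrays at day 4. An array stands here for 1 sample.

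The sarcomere is the contractile unit of striated muscle. Thick filaments of myosin heavy chains, each carrying an essential and a regulatory light chain, pull on thin filaments of actin, and calcium opens the thin filament to myosin by binding to the troponin complex. In the early heart the genes of these proteins are among the first markers of differentiating cardiomyocytes, and beating areas in EBs are a classical readout of heart muscle formation. Several of the proteins are shared with other muscle: Tnni1, Tnnc1, Myl3 and Myh7 also serve slow skeletal fibres, and Actc1 is a main actin of embryonic skeletal muscle.

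The values are dChip signals, normalized between arrays and on a linear scale. Signals below the 5th percentile of all values (59.6) were set to it before log2 transformation. Groups were compared in 1 limma model over all 31 arrays, with p adjusted over the 12422 probe sets by the Benjamini-Hochberg method and a threshold of 0.05. The median signal of an array lay between 553 and 638, and arrays of 1 group correlated at 0.947 to 0.997. EB day 4 replicates 6 and 7 stood apart from replicates 1 to 5, and EB day 8 replicates 2, 4 and 6 from replicates 1, 3 and 5, and the counts of genes that passed between EB stages are given with and without them. The ratio of the 3′ to the 5′ Gapdh control probe set, a sign of RNA integrity and amplification, was 3.48 to 6.85 in ES on gelatin, 2.24 to 4.40 at day 4, 2.11 to 2.61 at day 8 and 2.06 to 2.68 at day 14, so the day 8 and day 14 arrays lay below those of their day-0 cells. Its part in the results below was not tested.

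**Figure D1:**
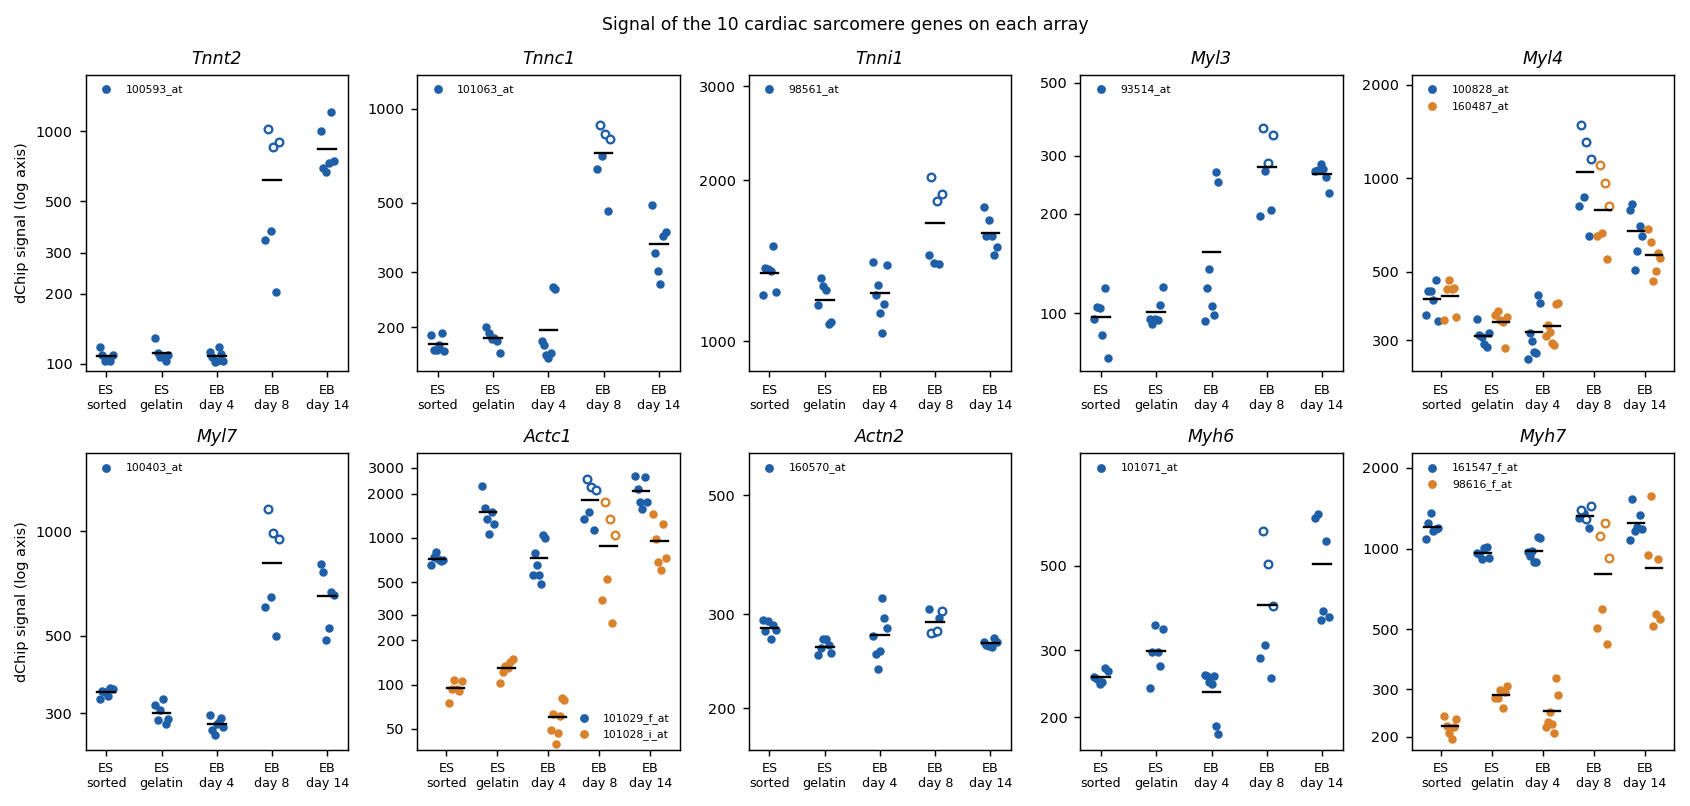
Signal of each cardiac sarcomere gene (dChip signal, log axis) on each of the 31 arrays, with groups on the x axis from ES Oct4-GFP sorted to EB day 14. Each point is 1 array, black bars are group means, colours mark the probe sets of a gene, and open circles are EB day 8 replicates 2, 4 and 6. The mean of each gene is highest at day 8 or day 14, by a narrow margin for Actn2, and the day 8 arrays of Tnnt2 fall into a set at 858 to 1024 and a set at 204 to 372.

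Between day 4 and day 8 of EB formation 9 of the 10 genes rose, none fell and Actn2 did not pass the test, with a median log2 change of 1.13. Among all probe sets 11.9% were higher and 12.6% lower at day 8, and the median change was 0. Of the 13 probe sets, 9 had all day 8 arrays above all day 4 arrays, as had 2.95% of all probe sets. Each of the troponin, light chain, actin and heavy chain families had members that rose. Leaving out day 4 replicates 6 and 7, an alternative chosen after seeing the data, gave the same 9 genes higher, beside 18.1% of all probe sets.

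Among thin filament genes, Tnnt2, which encodes the cardiac troponin subunit that ties the complex to tropomyosin, had a signal of 204 at its lowest, 615 at the median and 1024 at its highest at day 8, against 102, 107 and 118 at day 4. It rose by 2.28 ± 0.24 on the log2 scale (± SE, limma adjusted p = 1.13e-07). Its signal before day 8 was flat, at 103 to 129 in ES on gelatin and 103 to 118 in sorted cells, so the ES cell and day 4 groups overlapped throughout. Tnnc1, the calcium-binding troponin of heart and slow muscle, had 469 to 885 (median 751) at day 8, against 159 to 268 (median 175) at day 4, and the 2 groups did not overlap. Its change was 1.88 ± 0.14 (limma adjusted p = 1.52e-10). Tnni1, the inhibitory troponin subunit of the embryonic heart and of slow muscle, had 1398 to 2028 (median 1641) at day 8 and 1037 to 1410 (median 1220) at day 4. Its groups overlapped and differed by 0.42 ± 0.09 (limma adjusted p = 0.00061).

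Actc1, the cardiac alpha-actin of the thin filament, was measured by a pair of probe sets that differed in size. The probe set 101028_i_at had 265 to 1745 (median 785) at day 8 and 39.5 to 80.6 (median 61.3) at day 4, and it rose by 3.44 ± 0.30 (limma adjusted p = 2.72e-09). Since 3 of the 7 day 4 arrays lay under the floor of 59.6, the size of this change depends on the floor, and it was 1.67 with a floor at the 25th percentile of all values (223). The brighter probe set 101029_f_at had 1132 to 2526 (median 1800) at day 8 and 481 to 1046 (median 657) at day 4, a rise of 1.31 ± 0.20. The suffix _f marks a probe set whose probes match several members of a gene family, and signal of other actins in it cannot be told apart from Actc1. The smooth muscle actin gene Acta2 was itself higher at day 8, at 1824 to 5199, than at day 4, at 935 to 3960 (log2 change 1.15 ± 0.25), though it did not pass with day 8 replicates 1, 3 and 5 alone (0.73, limma adjusted p = 0.0793).

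The light chain genes rose together. Myl7, the regulatory light chain of atrial and early heart muscle, had 501 to 1157 (median 797) at day 8, against 259 to 296 (median 280) at day 4, with no overlap and a change of 1.47 ± 0.14 (limma adjusted p = 1.09e-08). Myl4, the essential light chain of the atria and of embryonic muscle, had 651 to 1490 (median 1014) at day 8 and 262 to 419 (median 298) at day 4. Its probe sets rose by 1.68 ± 0.15 and 1.21 ± 0.13. Myl3, the essential light chain of ventricle and slow muscle, overlapped between the groups, with 197 to 365 at day 8 and 94.9 to 268 at day 4, and differed by 0.95 ± 0.20 (limma adjusted p = 0.00084). The overlap of Myl3 came from day 4 replicates 6 and 7, at 268 and 249, since the other 5 arrays lay between 94.9 and 136. Tnnt2 and Myl3 were dim before day 8, and with the floor at 223 their changes were 1.25 and 0.27, both of which passed.

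The heavy chain genes rose less on their main probe sets. Myh6, the fast alpha heavy chain of the adult mouse heart, had 254 to 618 (median 352) at day 8 and 181 to 258 (median 247) at day 4, and it rose by 0.70 ± 0.18 (limma adjusted p = 0.00463), but by 0.39 with array weights, which did not pass (adjusted p = 0.0698). Myh7, the slow beta heavy chain of the fetal ventricle, rose by 0.44 ± 0.07 on 161547_f_at and by 1.60 ± 0.22 on 98616_f_at, both of which carry the family suffix. On 98616_f_at its signal was 441 to 1246 at day 8, against 207 to 330 at day 4. Actn2, the alpha-actinin that anchors thin filaments at the Z-disc, had 276 to 307 at day 8 and 237 to 322 at day 4, a difference of 0.09 ± 0.05 that did not pass (limma adjusted p = 0.199). It was the flattest of the genes over all groups, with every array between 237 and 322.

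Since 9 of the genes rose over the same days, their promoters were compared. RefSeq promoter sequences (build GRCm38.p6, 250 bases before to 50 after an annotated start) were found for all 10 genes. They were searched on both strands for the CArG box, which the serum response factor SRF binds in many muscle genes, and for other letters linked to muscle promoters. A CArG box was present in Myl3, Myl7 and Actc1, 3 of 10, against 1.63% of all 32851 promoters in the table. The 150 bases before the start of these 3 genes are shown 5′ to 3′ along the gene's own strand, with the CArG box in capitals, to set the box beside the values above. It begins 85 bases before the start in Myl3 (plus strand, chr9:110763528-110763677), 61 in Myl7 (minus strand, chr11:5898783-5898932) and 47 in Actc1 (minus strand, chr2:114052876-114053025).
Myl3: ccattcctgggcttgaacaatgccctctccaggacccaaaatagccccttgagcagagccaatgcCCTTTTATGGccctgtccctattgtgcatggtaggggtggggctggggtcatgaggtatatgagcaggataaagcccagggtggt
Myl7: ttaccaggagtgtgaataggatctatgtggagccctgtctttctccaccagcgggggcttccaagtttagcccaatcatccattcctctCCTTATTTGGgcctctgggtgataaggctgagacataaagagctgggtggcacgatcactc
Actc1: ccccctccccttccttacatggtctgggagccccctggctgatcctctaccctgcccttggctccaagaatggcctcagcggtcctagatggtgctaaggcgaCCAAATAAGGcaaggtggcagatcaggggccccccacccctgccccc
The 3 genes with a box changed by 0.95 (Myl3), 1.47 (Myl7) and 1.31 (Actc1) from day 4, and Tnnt2 and Tnnc1, with no such letters in the window, by 2.28 and 1.88. The letters CATTCC, the core of the MCAT element bound by TEAD factors, were in 6 of 10 members and 14.7% of all promoters, the GATA factor core GATAA in 3 and 25.4%, TATAAA in 2 and 13.6%, TNAAGTG, bound by NKX2-5, in 1 and 11.5%, and the MEF2 site in 0 and 3.19%. The TATAAA matches of Actc1 and Myh6 begin at bases 34 and 2 counted from the annotated start, and not before it. The windows of Myh6, Myl4 and Tnni1 lie 1410, 4646 and 16388 bases from the annotated 5′ end of the gene, so another start of these genes was not searched. Tnnt2, Tnni1 and Myh7 have 2 listed promoters each, and only the 1 nearest the annotated 5′ end was searched. A match is a description of the letters and not of a bound site.

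From day 8 to day 14 few of the genes passed the test. At day 14, 3 of the 10 were lower, none higher and 7 did not pass. The members' median log2 change was -0.07, where 20.1% of all probe sets were higher and 11.9% lower with a median of 0.03. Tnnc1 and both probe sets of Myl4 fell, and Actn2 fell by 0.13 on the log2 scale. Tnnt2 did not pass, at 0.65 in the other direction.

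Tnnc1 had 276 to 491 (median 369) at day 14, against 469 to 885 (median 751) at day 8, and it fell by 0.96 on the log2 scale (SE 0.15, limma adjusted p = 1.87e-05). The ranges overlapped at 1 array each, day 14 replicate 1 (491) and day 8 replicate 5 (469). Myl4 had 506 to 825 (median 676) at day 14 and 651 to 1490 (median 1014) at day 8, and it fell by 0.59 (SE 0.16, adjusted p = 0.00526) and, on the other probe set, by 0.45 (SE 0.13, adjusted p = 0.0103). Actn2 had 261 to 271 at day 14 and 276 to 307 at day 8, groups that did not overlap (limma adjusted p = 0.0451). Its call was lost without day 8 replicate 1, 5 or 6 and without any 1 of the day 14 arrays, 9 of 12 such fits, with adjusted p up to 0.109.

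Tnnt2 had 667 to 1209 (median 739) at day 14, against 204 to 1024 (median 615) at day 8. The difference was 0.65 ± 0.25 with a 95% interval of 0.13 to 1.17, and limma's adjusted p of 0.050039 lay just above the threshold. The SE is pooled over all 5 groups. The SD of Tnnt2 was 56.7% of its mean at day 8 and 25.7% at day 14, against 5.41 to 8.33% in the other groups. The interval may therefore be too narrow for these stages. Tnnt2 passed without any 1 of day 8 replicates 2, 4 and 6 (0.79 to 0.85), without day 14 replicate 2 or 3, with array weights (1.03), with the floor at the 1st percentile (adjusted p = 0.0451) and with the probe sets of each gene averaged (adjusted p = 0.047). Myh6 had 360 to 685 (median 481) at day 14 and 254 to 618 (median 352) at day 8, a difference of 0.38 ± 0.18 (limma adjusted p = 0.12) that passed with array weights (0.52, adjusted p = 0.00609) and, of the fits without 1 array, only without day 8 replicate 2 (0.52, adjusted p = 0.0206). Myl7 had 488 to 803 at day 14 and 501 to 1157 at day 8 (-0.27 ± 0.14, limma adjusted p = 0.154). It passed with quantile normalization (-0.35, adjusted p = 0.0463), with median centring (-0.36, adjusted p = 0.0348) and without day 8 replicate 5 (-0.39, adjusted p = 0.0249).

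The remaining members had intervals around 0. For Actc1 the difference of day 14 minus day 8 was 0.24 (95% interval -0.18 to 0.66) on 101029_f_at and 0.35 (-0.29 to 0.98) on 101028_i_at. For Tnni1 it was -0.05 (-0.23 to 0.13), for Myl3 -0.03 (-0.46 to 0.39) and for Myh7 -0.10 (-0.24 to 0.05) on 161547_f_at and 0.06 (-0.42 to 0.53) on 98616_f_at. These intervals are wide, and a change of up to 0.46 on the log2 scale in Myl3 lies within them. Among the day 14 arrays, replicates 1, 2 and 5 were the 3 highest in 7 of the 13 probe sets, which belong to 5 genes, and in 4.61% of all probe sets. This order was noticed in the data and is given with no test.

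The ratio to Tnnt2, which had the highest estimate of the members' probe sets (0.65), was also computed for the other 12 probe sets. A lower mean ratio at day 14 in all 12 follows from that choice and is no separate result. The ranges of the 2 stages did not overlap for Tnnc1 and for both probe sets of Myl4. The choice of Tnnt2 favours such a separation, and the share of all probe sets that separated was not computed. The log2 ratio of Tnnc1 to Tnnt2 lay between -1.63 and -0.88 at day 14, against -0.21 to 1.20 at day 8, and its mean fell by 1.61. For Myl4 it lay between -0.79 and 0.25 at day 14 and 0.36 to 1.67 at day 8, and the mean fell by 1.25. For Myl7 the ranges overlapped, at -0.85 to 0.14 and 0.07 to 1.29, and the mean fell by 0.92. They also overlapped for Actn2, Myh7, Tnni1 and Myl3, whose mean ratios fell by 0.78, 0.75, 0.70 and 0.69 on the main probe set. The ratio was chosen after the values were seen and shares Tnnt2 in every case, so it is given with no test. With day 8 replicates 2, 4 and 6 alone, the ratio fell by 1.04 for Tnnc1, 0.80 for Myl4 and 0.51 for Myl7, and its change was -0.09 for Tnni1, -0.15 for Myl3, 0.06 for Actn2 and 0.03 for Myh7. With replicates 1, 3 and 5 alone, it fell by 2.19 for Tnnc1, 1.69 for Myl4 and 1.33 for Myl7.

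At day 8 the members split the arrays. In 11 of the 13 probe sets, from 9 genes, all of replicates 2, 4 and 6 lay above all of replicates 1, 3 and 5, where 17.2% of all probe sets did so and 14.6% had the opposite order. The labels name no such sets and the sets were proposed with the values known, so their values are a description with no test. A log2 difference above 0.5 was seen in 9 of the 13 probe sets and in 7.39% of all probe sets.

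Tnnt2 had 858 to 1024 in replicates 2, 4 and 6, against 204 to 372 in replicates 1, 3 and 5, a ratio of means of 3.04. On Actc1's 101028_i_at the values were 1045 to 1745 and 265 to 524 (ratio 3.54), and on its brighter 101029_f_at 2105 to 2526 and 1132 to 1494 (ratio 1.72). The ratio was also wide on Myh7's 98616_f_at, with 920 to 1246 and 441 to 596 (2.12). Myh6 (ratio 1.78), Myl7 (1.77) and Myl4 (1.69) had closer sets. Tnnc1 had 799 to 885 and 469 to 703 (1.39), Tnni1 1829 to 2028 and 1398 to 1454 (1.35), and Myl3 285 to 365 and 197 to 271 (1.48). Actn2 (0.98) and the Myh7 probe set 161547_f_at (1.07) overlapped between the sets. Among the troponins, the ratio of Tnnt2 was above those of Tnnc1 and Tnni1.

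**Figure D2:**
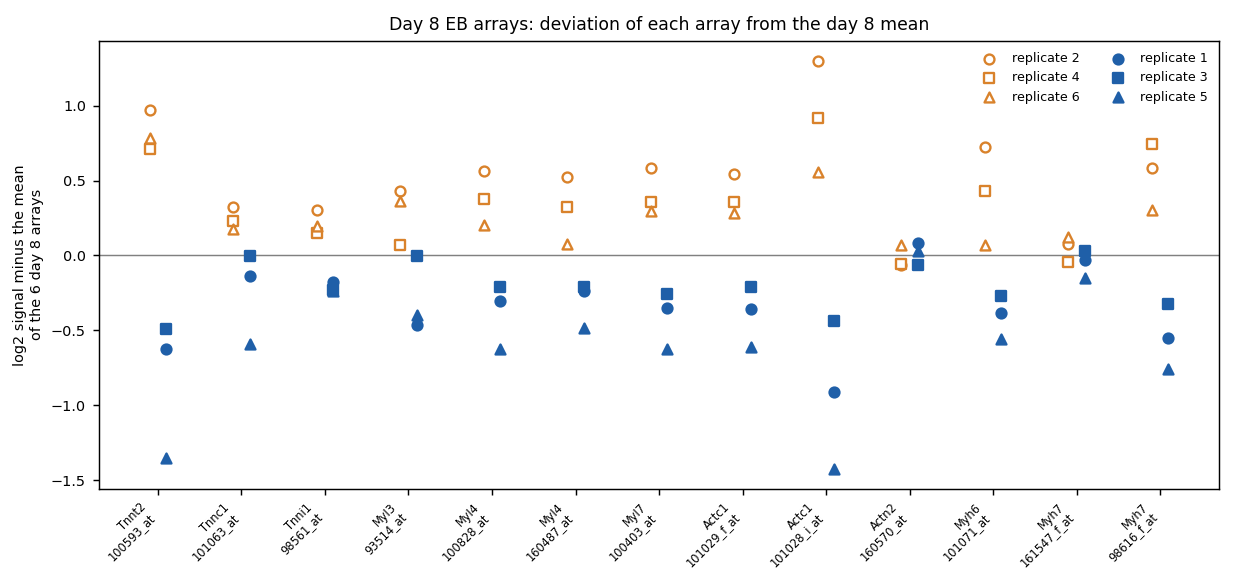
Deviation of each EB day 8 array from the mean of the 6 day 8 arrays (log2 signal, y axis) for the 13 probe sets (x axis), with open orange symbols for replicates 2, 4 and 6 and filled blue symbols for replicates 1, 3 and 5. Replicates 2, 4 and 6 lie above replicates 1, 3 and 5 in 11 probe sets, most widely for Tnnt2 and Actc1 101028_i_at, and the sets mix in Actn2 and Myh7 161547_f_at.

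Summed signals of some other gene lists also differed between these sets of arrays. The summed signal of 17 visceral endoderm genes was 36528 to 38556 in replicates 2, 4 and 6, against 22350 to 28195 in replicates 1, 3 and 5, and that of 19 fibroblast genes was 26153 to 33089 and 18599 to 19608. The sum of 18 pluripotency genes ran the other way, at 27046 to 29573 and 50599 to 62873, and so did that of 13 striated muscle energy genes, at 6507 to 7441 and 8679 to 10236. Fabp3 made up the largest part of this energy difference, with means of 1879 and 4201, and most other energy genes overlapped between the sets. Of the endoderm genes, Rbp4 (means of 7981 and 4938), Apob (4484 and 1578) and Dab2 (5871 and 3397) gave large parts of the difference. Afp, Sox17 and Foxa2 were among the endoderm genes that overlapped. Hnf4a and Cited1 also overlapped and had lower means in replicates 2, 4 and 6 (ratio 0.89 each). The sum of 24 skeletal muscle genes overlapped, at 11767 to 13774 and 13021 to 13371. That of 9 smooth muscle genes did not, at 13053 to 14596 and 11006 to 12816. Nor did those of other sarcomere and Z-disc genes (17611 to 19377 and 16411 to 16696) and cardiac transcription factors (11396 to 12408 and 10487 to 11007). Cardiac membrane, calcium and hormone genes summed to 18826 to 21834 and 16351 to 17456. The Gapdh ratio was 2.29 to 2.61 and 2.11 to 2.25. No gene of the endoderm, fibroblast, pluripotency, energy and skeletal muscle lists was at 0 on any array. The part of other cell types in the members' split was not tested.

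What the comparison of day 14 with day 8 shows depended on these sets. Since the sets were proposed with the values known, calls in fits on either set follow in part from that choice. Here and below they are given as a description. Against replicates 2, 4 and 6 alone, 0 members were higher and 3 lower at day 14 (Tnnc1, Myl4 and Myl7), and 2 of the 3 are shared with the result on all arrays. In that fit 5.64% of all probe sets were higher and 3.83% lower. Against replicates 1, 3 and 5 alone, 3 were higher (Tnnt2 by 1.47, Myh6 by 0.79 and Actc1 by 0.63 on the log2 scale) and 1 lower, beside 22.8% and 15.2% of all probe sets. Tnnc1 was lower at day 14 against either set. Tnnt2 turned in sign and did not pass against replicates 2, 4 and 6. The rise from day 4 to day 8 held for 9 genes with replicates 2, 4 and 6 alone and for 6 with replicates 1, 3 and 5 alone, where Myh6, Myl3 and Tnni1 did not pass. Of all probe sets 11.4% and 8.24% were higher in these fits.

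**Figure D3:**
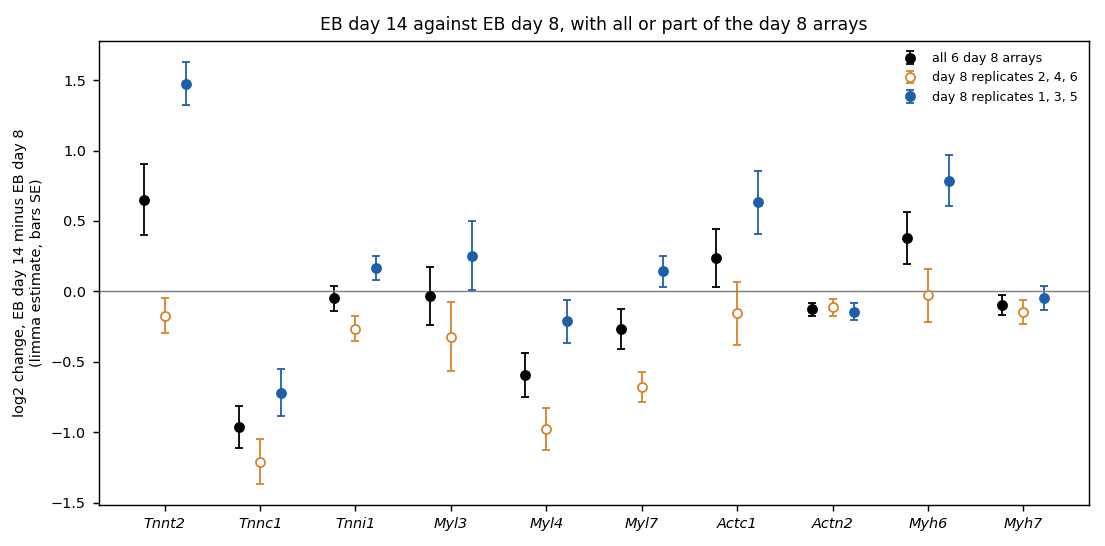
Log2 change of EB day 14 minus EB day 8 (y axis, limma estimate, bars SE) for the main probe set of each gene (x axis), fitted with all 6 day 8 arrays (black), with day 8 replicates 2, 4 and 6 (open orange) and with replicates 1, 3 and 5 (filled blue). Tnnc1 lies below 0 in all 3 fits, whereas Tnnt2 is at 1.47 against replicates 1, 3 and 5 and below 0 against replicates 2, 4 and 6.

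Most of the genes were also higher in the EBs at day 8 and day 14 than in their ES cells of origin. Relative to ES on gelatin, 8 of the 10 genes were higher and 0 lower at day 8, where 17.4% of all probe sets were higher and 25.6% lower, and 8 were higher and 0 lower at day 14, where 21.8% were higher and 23.2% lower. At day 14 all members except Actc1 and Actn2 passed, and 11 of the 13 probe sets lay above ES on gelatin without overlap, as did 14% of all probe sets. At day 8 all except Actc1 and Myh6 passed, and the count was 9 with day 8 replicates 2, 4 and 6 alone and 8 with replicates 1, 3 and 5 alone. The share of all probe sets that passed in these fits was not computed, so these counts have no background beside them. Tnnt2 was 7.43-fold higher (2.89 ± 0.25 on the log2 scale), with 667 to 1209 at day 14 against 103 to 129 on gelatin. Myl3 was 2.63-fold higher, Myl4 2.15-fold, Myl7 2.13-fold, Tnnc1 1.96-fold, Myh6 1.64-fold, Tnni1 1.34-fold and Myh7 1.29-fold on its main probe set. The folds of the genes dimmest on gelatin depend on the floor: with the floor at 223, Tnnt2 was 3.68-fold, Tnnc1 1.62-fold and Myl3 1.19-fold higher. At day 8 Tnnc1 was 3.83-fold higher than on gelatin, and Actn2 passed at day 8 (0.15) but not at day 14 (0.02). These comparisons share the gelatin and EB arrays with each other.

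Actc1 turned on the probe set. On 101029_f_at it had 1585 to 2623 at day 14 and 1066 to 2244 in ES on gelatin, 0.48 ± 0.20 apart (limma adjusted p = 0.0555), whereas on 101028_i_at it had 601 to 1467 and 103 to 148, 2.81 ± 0.31 apart. ES on gelatin also had 2.04-fold more signal than sorted cells on 101029_f_at (1066 to 2244, against 651 to 797), and on 101028_i_at 103 to 148 and 74.3 to 108 (limma adjusted p = 0.24). Between these cells the other actins of muscle also differed: Acta2 averaged 14282 in ES on gelatin and 5985 in sorted cells, and Acta1, the skeletal actin, 3945 and 1447. At day 14 Acta2 averaged 4471 and Acta1 309, below their gelatin means, where 101029_f_at averaged 2083, against 1503 on gelatin. Actg2, a smooth muscle actin on a family probe set, averaged 911 in sorted cells, 2016 on gelatin and 4148 at day 14. Whether any of these actins is a source of the signal on 101029_f_at was not tested. The summed signal of 19 fibroblast genes also differed, at 41205 to 68639 in ES on gelatin and 22527 to 28799 in sorted cells. Its part in the Actc1 values was not tested.

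Between the day-0 groups and at day 4 few members passed the test. Relative to ES on gelatin, EBs at day 4 had 1 member lower, Actc1, and 0 higher, where 7.95% of all probe sets were higher and 16.3% lower. The same single gene was lower without day 4 replicates 6 and 7, where 8.07% of all probe sets were higher and 15.8% lower. Actc1 was lower on both probe sets (-1.07 ± 0.20 and -0.98 ± 0.30), with 481 to 1046 at day 4 and 1066 to 2244 on gelatin for 101029_f_at. Against sorted cells, Actc1 did not pass at day 4 (-0.04), Myl3 was higher and Myh7 lower. In ES on gelatin against sorted cells 1 member was higher (Actc1) and 1 lower (Myh7), beside 21.4% and 18.2% of all probe sets. Myh7 had 918 to 1011 on gelatin and 1088 to 1352 in sorted cells on 161547_f_at (-0.32 ± 0.07), but 256 to 309 and 197 to 238 on 98616_f_at, the opposite direction (0.39 ± 0.23, limma adjusted p = 0.191).

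Day 4 replicates 6 and 7 differed from the other day 4 arrays in several members. Tnnc1 was at 268 and 264 there and at 159 to 181 in the other 5 arrays. Myl3, Myl4, Actc1 and Myh7 were also higher, on each of their probe sets. Tnnt2 (110 and 103, against 102 to 118), Myl7 (291 and 273, against 259 to 296), Tnni1 and Actn2 overlapped with the others. Myh6 was lower, at 190 and 181 against 244 to 258. In the same arrays the pluripotency sum was 37685 to 45405, against 56987 to 69784, the visceral endoderm sum 12030 to 13853, against 7409 to 8521, and the sum of 13 striated muscle energy genes 10334 to 10547, against 5904 to 7293. Their part in the members' values was not tested.

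Some other genes of the contractile apparatus rose with the members by day 8. Of 16 further sarcomere and Z-disc genes measured (of 24 listed), 6 rose and 0 fell between day 4 and day 8 (median log2 change 0.13). Ankrd1, a stress-responsive Z-disc and nuclear protein, rose by 1.47 ± 0.29, with a mean signal of 247 at day 8 against 86.3 at day 4. The M-band gene Myom1 rose by 0.76 ± 0.17, tropomyosin Tpm1 by 0.58 ± 0.12 and the LIM protein gene Fhl2 by 0.26 ± 0.08. Tnni3, the troponin I of the mature heart (mean 236 at day 8 and 216 at day 4), and Myl2, the ventricular regulatory light chain (263 and 255), did not pass. From day 8 to day 14 only Mybpc3, the cardiac myosin binding protein, rose (0.22 ± 0.07) and Myom2 fell (-0.24 ± 0.08) among these 16, and neither passed with day 8 replicates 2, 4 and 6 alone. By day 8, 5 of the 16 rose with replicates 2, 4 and 6 alone, and 3 with replicates 1, 3 and 5 alone, where Myom1 and Fhl2 did not pass. Leaving out day 4 replicates 6 and 7 gave 8 that rose, and 0 fell in each of these fits.

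Cardiac regulators rose in part. Of 16 cardiac transcription factors measured (of 22), 6 rose and 0 fell from day 4 to day 8 (median 0.14), and 5 rose and 1 fell from day 8 to day 14 (median 0.02). Isl1, a factor of second heart field progenitors that is also found in other lineages, had a mean signal of 110 at day 4, 218 at day 8 and 326 at day 14, and rose by 0.95 ± 0.14 and then 0.58 ± 0.14. Hopx (0.65 ± 0.08), Smyd1 (0.34 ± 0.09), a muscle histone methyltransferase of sarcomere assembly, and Gata6 (0.27 ± 0.08) rose by day 8. Mef2a rose by day 14 (0.77 ± 0.18) and Tbx2, a repressor of chamber genes, fell (-0.55 ± 0.08). Gata4 (mean 777 at day 8 and 794 at day 4) and Nkx2-5 (451 and 400), defining factors of early cardiomyocytes, did not pass between day 4 and day 8. The counts moved with the arrays used: by day 8, 6 rose with replicates 2, 4 and 6 alone, 2 (Isl1 and Hopx) with replicates 1, 3 and 5 alone and 7 without day 4 replicates 6 and 7. By day 14, 1 rose and 1 (Tbx2) fell with day 8 replicates 2, 4 and 6 alone, where Isl1 (0.27) and Mef2a (0.38) did not pass, and 5 rose and 1 fell with replicates 1, 3 and 5 alone.

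Genes of the cardiac membrane, calcium handling and hormones passed the test between day 8 and day 14 in a few cases. Of 15 measured (of 20), 0 rose and 1 fell between day 4 and day 8 (median 0.06), and 5 rose and 0 fell between day 8 and day 14 (median 0.08). The 5 were the gap junction gene Gja1 (0.55 ± 0.12), the sodium-calcium exchanger Slc8a1 (0.42 ± 0.11), the potassium channel Kcnq1 (0.28 ± 0.07), calreticulin Calr (0.27 ± 0.08) and the cardiac calsequestrin Casq2 (0.24 ± 0.09). None of the 15 passed in this interval with day 8 replicates 2, 4 and 6 alone, where the 5 were at 0.18 to 0.33, and 5 rose and 1 fell with replicates 1, 3 and 5 alone. By day 8, 1 rose (Slc8a1) and 1 fell with replicates 2, 4 and 6 alone, 0 passed with replicates 1, 3 and 5 alone, and 1 rose and 3 fell without day 4 replicates 6 and 7. Nppa, the atrial hormone, had mean signals between 1212 and 1324 in all 5 groups. Ryr2, the calcium release channel of the cardiac sarcoplasmic reticulum, lay near the lowest signals (means 42.8 to 69.9), so a change in it is poorly measured on this array.

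Of genes of other muscle, 24 skeletal muscle genes (of 25) had 1 higher and 2 lower at day 8 against day 4, and 2 higher and 5 lower at day 14 against day 8. Tnnt1, the slow skeletal troponin T, was the 1 that rose by day 8 (0.46 ± 0.16), and it fell by 0.70 ± 0.17 on the log2 scale by day 14. Its rise did not pass with either set of 3 day 8 arrays (adjusted p = 0.164 with replicates 2, 4 and 6 and 0.0855 with replicates 1, 3 and 5), nor its fall with replicates 2, 4 and 6 (adjusted p = 0.0559). Mylpf, the fast regulatory light chain, fell in both intervals, with a mean signal of 1215 at day 4, 592 at day 8 and 310 at day 14, and with either set of day 8 arrays. By day 14, 1 skeletal muscle gene rose and 1 fell with day 8 replicates 2, 4 and 6 alone, and 2 rose and 8 fell with replicates 1, 3 and 5 alone, and without day 4 replicates 6 and 7, 4 rose and 2 fell by day 8. Of the myogenic factors, Myf5 averaged 37.6 at day 8 and 41.9 at day 4, under the floor of 59.6, and Myod1 910 in both. Of 9 smooth muscle genes (of 12), 2 rose (Acta2 and Actg2) and 2 fell (Tagln and Myl9) by day 8. With replicates 2, 4 and 6 alone 1 rose and 2 fell, and with replicates 1, 3 and 5 alone 1 rose and 1 fell. Of 13 striated muscle energy genes (of 14), 1 rose and 1 fell by day 8, and 0 rose and 4 fell by day 14, among them Fabp3, the fatty acid carrier of heart muscle (-1.54 ± 0.34), and Cox7a1 (-0.80 ± 0.20). These falls were larger against day 8 replicates 1, 3 and 5 (-2.12 for Fabp3 and -1.28 for Cox7a1) than against replicates 2, 4 and 6, where neither passed (-0.95, limma adjusted p = 0.137, and -0.31, limma adjusted p = 0.358) and 1 energy gene fell. Cox7a1 lay at 50.9 to 76.5 at day 14, partly under the floor of 59.6, so the size of its fall depends on the floor.

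Genes of cell types outside muscle changed over the same days. Of 17 visceral endoderm genes (of 18), 12 rose and 1 fell from day 4 to day 8, and 10 rose and 1 fell from day 8 to day 14. All 18 pluripotency genes were measured, and 7 and then 13 of them fell with 0 rising. Of 19 fibroblast genes (of 20), 6 rose and 5 fell and then 9 rose and 1 fell. With day 8 replicates 2, 4 and 6 alone, 12 endoderm genes rose by day 8 and 6 by day 14, 13 and then 9 pluripotency genes fell, and 7 and then 9 fibroblast genes rose. With replicates 1, 3 and 5 alone, 11 and then 11 endoderm genes and 5 and then 9 fibroblast genes rose, and 3 pluripotency genes rose and 1 fell by day 8 while 14 fell by day 14. Without day 4 replicates 6 and 7, 13 endoderm genes and 6 fibroblast genes rose and 9 pluripotency genes fell by day 8. The summed endoderm signal was 7409 to 13853 at day 4, 22350 to 38556 at day 8 and 39106 to 51295 at day 14, and the summed signal of the 10 members 3924 to 5227, 6302 to 11764 and 7401 to 9783 at the same times.

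**Figure D4:**
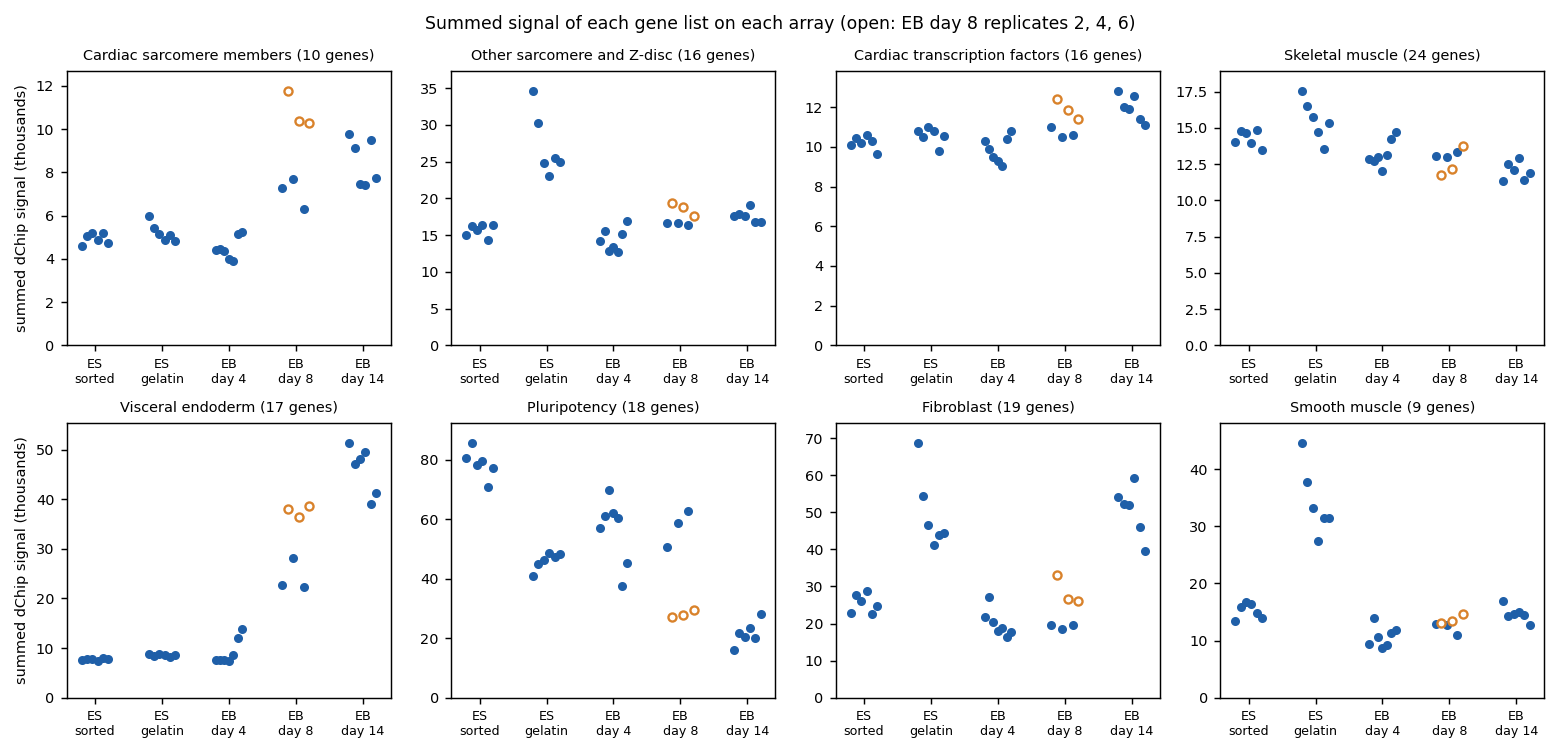
Summed dChip signal (y axis, in units of 1000, from 0) of the genes of 8 lists on each array, with groups on the x axis and 1 point per array, and open orange circles for EB day 8 replicates 2, 4 and 6. The cardiac sarcomere sum is 6302 to 11764 at day 8 and 7401 to 9783 at day 14, while the visceral endoderm sum is 22350 to 38556 and 39106 to 51295.

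The genes most like the members over the 31 arrays were not muscle genes. Each member was scaled to mean 0 and SD 1 on the log2 scale and averaged to a score, and the Pearson correlation of every other gene with the score was taken as a description. Members themselves correlated with their score at 0.98 (Myl7), 0.97 (Myl4), 0.93 (Tnnc1 and Tnnt2), 0.87 (Tnni1), 0.86 (Myl3), 0.80 (Myh7), 0.76 (Myh6 and Actc1) and 0.25 (Actn2). The 10 genes with the highest values were Apoc2, Dkk1, Apom, Lcp1, Vil1, Prss12, Rarres2, Igf2, Tmprss2 and Rbp4, at 0.929 to 0.956. Apoc2 (0.956) and Apom are apolipoproteins, Rbp4 carries retinol, and Dkk1 (0.955) is a secreted WNT inhibitor. Over the 19 EB arrays alone Apoc2 and Dkk1 stayed at 0.946 and 0.951. The arrays share their time course, so any gene that rose between day 4 and day 8 and split the day 8 arrays in the same way will score high.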

How the data were processed

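The deposited table holds dChip signal intensities, 1 column per array. Per the labels and methods, the authors amplified total RNA in 2 rounds, hybridized it to MgU74Av2 arrays, and normalized and modeled the probe values in dChip; the dChip version and model are not given in the sources used here. Methods list 12 days where the labels give 14, and the labels were followed. Later time points are not analysed here.

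The array has 12488 probe sets, of which 12422 were tested after removal of 66 controls. Gene names come from the platform annotation: 10833 probe sets have 1 symbol, 396 several and 1193 none. Of 387128 values, 104 are exactly 0. Values were raised to the 5th percentile (59.6), log2 transformed and fitted with limma 3.58.1 in R 4.3.3 (5 group means, lmFit and eBayes with a variance trend), with Benjamini-Hochberg adjustment over the 12422 probe sets. The brightest probe set by mean stands for a gene. The p-values measure the spread between arrays, whose number limits the precision. The model takes the arrays of a group as independent, so an SE may be too small where arrays fall into sets, as at day 4 and day 8. The spread of a probe set is pooled over the 5 groups, so an SE may be too small where a gene varied most at day 8 or day 14. Replicate numbers pair no samples in the labels, and arrays of the same number correlated between -0.351 and 0.494 after removal of group means.

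The members and the gene lists were chosen with earlier results of these data known. All 10 members are named, with up to 4 genes of a list that changed most among those passing, its defining genes, and the 10 genes most like the members' score; Tnni3, Myl2, Actg2, Tagln, Myl9, Acta1 and the ratios to Tnnt2 were chosen after their values were seen. On simulated data of this layout (day 14 against day 8, 12422 probe sets), 43 of 67 changes of 0.5 on the log2 scale, 65 of 67 of 1 and 65 of 66 of 2 were found, with 10 false calls. The simulated noise was independent, with the same SD in every group and no split of the day 8 arrays. These rates therefore need not hold for the real comparison. The model was refitted after median centring or quantile normalization, with a floor at the 25th or the 1st percentile, without the dimmest 40% of probe sets, on 2 groups at a time, with array weights, with the replicate number as a block, without a variance trend, with probe sets of a gene averaged, with other day-0 references and without single arrays. Figures were drawn with matplotlib 3.10.9.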

Additional observations from a re-analysis of the deposited data

Results flagged for a closer look

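Of 65 sets of member values tested (13 probe sets in 5 groups), 2 held an array far from the others by Dixon's test at 0.05, which chance gives in about 1 of 20. Both are in ES on gelatin. Tnnt2 was at 129 in replicate 1, where the other 5 arrays lay between 103 and 111. Myl4 on 160487_at was at 283 in replicate 5, where the others lay between 345 and 374.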

How the results depend on the processing

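The increase between day 4 and day 8 counted 9 members higher under most alternatives, 8 of them the same with array weights (Myh6 lost, Actn2 gained), and ranged from 9 to 10 when 1 array was left out. It was 5 with dim probe sets left out, which removes 5 of the 10 members. That setting also gave 4 members for day 8 against ES on gelatin, 5 for day 14 against ES on gelatin and 1 for day 14 against day 8. For day 14 against day 8 the count of 3 became 6 with array weights (3 higher and 3 lower) and ranged from 2 to 5 when 1 array was left out, with 5 (2 higher and 3 lower) without EB day 8 replicate 2. The counts against ES on gelatin ranged from 8 to 8 at day 8 and from 8 to 9 at day 14. For day 4 against ES on gelatin, the count of 1 became 2 with median centring, 2 with fits of 2 groups, 2 with sorted cells as day 0 (1 higher, 1 lower), and 0 after pooling the ES cell groups. It ranged from 1 to 2 when 1 array was left out, with 2 without EB day 4 replicate 1 or 5. For ES on gelatin against sorted cells the count of 2 became 5 with quantile normalization, 5 with median centring, 5 with fits of 2 groups, 4 with array weights, 1 with probe sets of a gene averaged and 0 with the other probe set of Actc1, Myh7 and Myl4, and ranged from 2 to 3 when 1 array was left out. Myh7 reversed in 3 cases: it was -0.30 at day 4 with sorted cells as day 0, and 0.034 with the mean of its probe sets and 0.39 on its other probe set in ES on gelatin against sorted cells. The cause was not tested. Of the single-gene changes refitted, 1365 kept direction and call, 57 changed sign without passing in either fit, 60 gained and 25 lost the call. With the replicate number as a block, the counts were 3 for day 14 against day 8, 9 for day 8 against day 4 and 3 for ES on gelatin against sorted cells, and no count moved by over 1.5 times. The share of all probe sets that passed was not computed for refits with other settings or without single arrays. Their member counts therefore have no background beside them. The other probe set of a gene and the day 4 arrays without replicates 6 and 7 are alternatives chosen after seeing the data. Signals near the floor, such as Ryr2, Myf5 and Actc1 101028_i_at at day 4, limit what small changes can be seen.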
